A study of Mus musculus with 15 samples.

Results

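Disulfide HMGB1 (dsHMGB1) gave the highest level of 87 protein-coding genes among 5 conditions of mouse bone marrow-derived macrophages (BMDMs). They were chosen by their measured levels, as the genes whose mean in dsHMGB1 was at least 1 CPM (counts scaled to library size, with the trimmed mean of M-values, TMM) and at least 1.5 times the mean in each of the other 4 conditions. They made up 0.668% of the 13025 protein-coding genes that passed a filter on low counts, and all 87 also passed that filter without the dsHMGB1 libraries. The rule was met by 94 genes in all, of which Marco, Mmp9, Siglece, Cd300e, Pde4a, Tgfbi and Kcnh7 are not described here. Because the level in dsHMGB1 chose the genes, every value of dsHMGB1 against another condition is a description with no test. The rule also capped the mean of each other condition, which limits how far one of them could exceed another but not how far it could fall. Counts and medians over the 87 genes in the comparisons among those 4 conditions therefore depend in part on the rule and are given as descriptions, and nothing is read from their distance to all genes.

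RNA was sequenced from 15 libraries, 3 for each condition, of wild-type BMDMs grown from female C57BL/6NTac mice 8 to 10 weeks old. The cells were matured with M-CSF, for 10 days by the sample labels and 8 to 9 days by the methods of the study, and were stimulated for 24 h. Cells of 5 mice were pooled before seeding, so the libraries of a condition are technical replicates, and errors and p-values hold nothing of the variation between mice. The question addressed was how the redox forms of HMGB1 change the macrophage compared with classical stimuli. Control cultures received PBS. Both the dsHMGB1 and the fully reduced HMGB1 (frHMGB1) were given at 5 µg/mL, and LPS alone at 1 µg/mL. The LPS/IFNγ cultures had IFNγ at 20 ng/mL beside LPS, whose concentration is 1 µg/mL in the treatment label and 100 ng/mL in the protocol text. Both HMGB1 forms were recombinant, frHMGB1 made in the study's laboratory and dsHMGB1 obtained from another. By the methods of the study, frHMGB1 was made in buffers with the reductant DTT and dsHMGB1 in buffers without it. Redox form, preparation and buffer therefore cannot be told apart.

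The libraries held 40934540 to 80925478 counts. PBS replicate 3 stood apart, with a correlation of log2 CPM across genes of 0.939 and 0.934 with the other PBS libraries, against 0.993 between those. Among the 87 genes, PBS replicate 3 was the lowest PBS library in 55 and the highest in 29, so counts that rest on PBS are also given without it. The 11 macrophage markers tested (among them Adgre1, Csf1r, Cd68 and Lyz2) summed to between 20100 and 24000 CPM in every library. The neutrophil genes Ly6g, Mpo, Retnlg and S100a9, the T and NK cell genes Cd3d, Cd3e and Ncr1, the mast cell and basophil genes Cma1, Ms4a2, Prss34 and Tpsb2 and the erythroid genes Hba-a1 and Hbb-bs had 0 counts in every library. The osteoclast markers summed to 641 to 687 CPM in dsHMGB1, 778 to 805 in LPS, 923 to 976 in LPS/IFNγ, 1110 to 1180 in frHMGB1 and 1240 to 1360 in PBS. Most of that sum was Atp6v0d2, with a mean of 1120 CPM in PBS and 492 in dsHMGB1. Of the 6 osteoclast markers tested, Acp5 and Dcstamp were called higher in dsHMGB1 than in PBS, and 3 were called lower. Over all protein-coding genes tested, 25.6% were called higher and 27.3% lower there. The dendritic cell markers summed to 3.73 to 4.69 CPM in dsHMGB1, 10.4 to 11.1 in LPS, 18 to 19.5 in LPS/IFNγ, 2.79 to 3.53 in frHMGB1 and 3.38 to 4.15 in PBS, so that the sum was higher in LPS than in PBS and higher again in LPS/IFNγ. In the same order of conditions, the lymphocyte list summed to 11.5 to 13.1, 7.06 to 9.23, 10 to 11.4, 36 to 40.6 and 29 to 36.2 CPM, the neutrophil list to 2.25 to 4.63, 5.19 to 5.77, 2.51 to 3.22, 1.66 to 2.04 and 1.64 to 4.94 CPM, and the fibroblast list to 222 to 274, 288 to 303, 293 to 295, 198 to 200 and 110 to 224 CPM. Of the 4 dendritic cell markers tested, 3 were called higher in LPS than in PBS and Clec9a lower, beside 30.6% and 34% of protein-coding genes. Clec9a had means of 2.06 CPM in PBS, 0.201 in LPS and 1.155 in LPS/IFNγ. The mast cell and basophil list stayed at or below 0.219 CPM in every library. The part of these lists in the results was not tested. In bulk RNA, fewer cells of a type and less RNA per cell cannot be told apart.

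HMGB1 is a nuclear DNA-binding protein that acts as a danger signal outside the cell. Its disulfide form binds the TLR4 and MD-2 complex, the receptor that also recognises LPS, whereas the fully reduced form is known mainly for recruiting leukocytes together with CXCL12 and CXCR4. IFNγ, together with LPS, drives the classical pro-inflammatory macrophage state. Cholesterol export under liver X receptors (LXRs) and thiol defence under the factor NRF2 are both well known programmes of stimulated macrophages.

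The ratio of the dsHMGB1 mean to the next highest condition mean had a median of 1.75 and ran from 1.51 to 4.32, with 19 genes at 2 or more. The next highest condition was LPS for 50 genes, frHMGB1 for 20, LPS/IFNγ for 12 and PBS for 5. The lowest condition was LPS/IFNγ for 39 genes and PBS for 33. Against PBS, the dsHMGB1 mean was at least 5 times higher for 23 genes, 2 to 5 times for 51 and less than 2 times for 13. The plot of levels by library shows the genes in groups of function, which were assigned by hand from textbook roles.

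**Figure D1:**
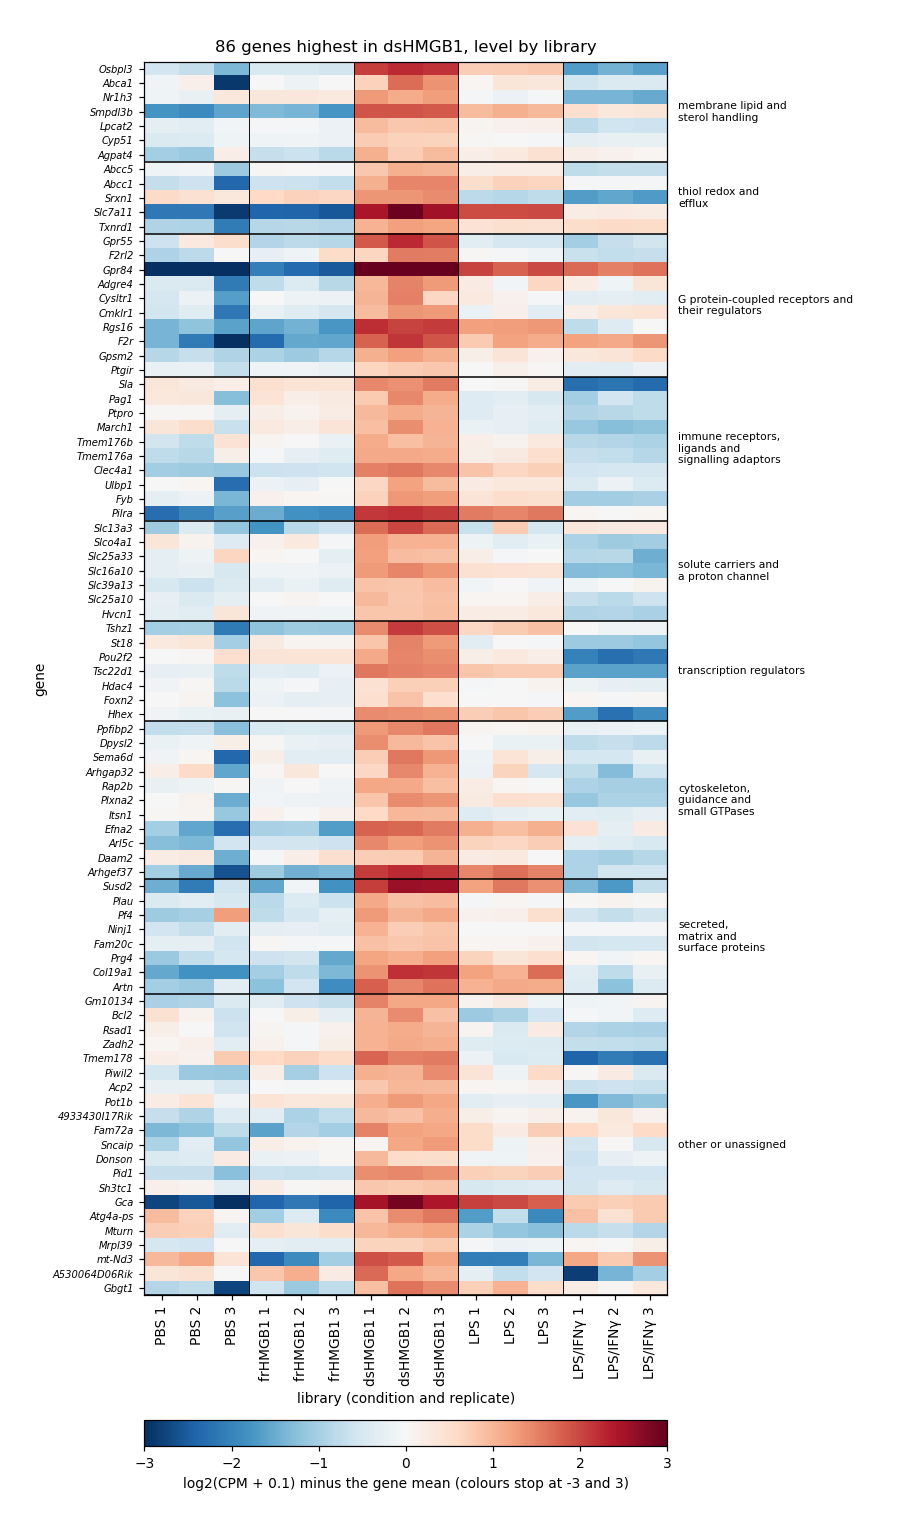
Level of 86 of the 87 genes (rows, in groups of function) in the 15 libraries (columns), as log2(CPM + 0.1) minus the mean of the gene over all libraries, with red above and blue below that mean. The 3 dsHMGB1 columns are the reddest in 78 rows, LPS/IFNγ is the bluest condition in 39 rows by its mean and PBS in 33.

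All 3 dsHMGB1 libraries lay above all 12 other libraries in 79 of the 87 genes, beside 2.93% of the 10408 protein-coding genes with a dsHMGB1 mean of at least 1 CPM. The rule used that difference, so nothing is read from the count. The other 8 genes, whose dsHMGB1 libraries overlapped another condition, were Arhgap32, Pf4, Sncaip, Col19a1, Atg4a-ps, mt-Nd3, A530064D06Rik and Gbgt1. The members just inside the ratio of 1.5 were Txnrd1 (1.52), A530064D06Rik (1.52), Artn (1.51), Hvcn1 (1.51) and Gbgt1 (1.51). Just outside were Idi1 (1.49), Zdhhc18 (1.49), Kif3c (1.48), Bcr (1.48) and Cdc42bpg (1.48).

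**Figure D2:**
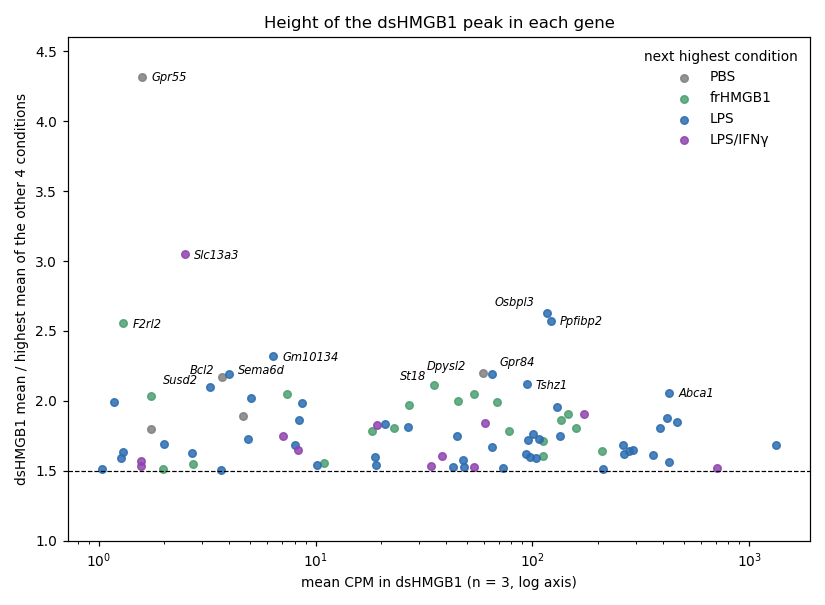
Ratio of the dsHMGB1 mean to the highest mean of the other 4 conditions (y axis) against the mean CPM in dsHMGB1 (x axis, log scale), with 1 point per gene coloured by the next highest condition and the dashed line at the ratio of 1.5. Gpr55 (4.32), Slc13a3 (3.05) and F2rl2 (2.55) have high ratios at 1.59, 2.50 and 1.30 CPM, while Osbpl3 (2.63) and Ppfibp2 (2.57) reach theirs above 100 CPM.

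Osbpl3, Ppfibp2, St18 and Pag1 are described most fully, each within its group. Osbpl3 headed the genes of membrane lipid and sterol handling. It encodes a member of the oxysterol-binding protein family, whose proteins exchange lipids between the endoplasmic reticulum and other membranes, and lies at chr6:50293330-50456201, minus strand in GRCm38. Its level was 109, 123 and 118 CPM in dsHMGB1, 43.3, 44.0 and 45.6 in LPS, 8.08, 9.56 and 8.36 in LPS/IFNγ, 18.9, 19.0 and 17.7 in frHMGB1 and 17.5, 15.9 and 10.1 in PBS. The 3 dsHMGB1 libraries were the highest of the 15 and the LPS libraries were the next, while the highest LPS/IFNγ library was below the lowest PBS library. The dsHMGB1 mean was 116 ± 6.89 CPM (SD, n = 3), 2.63 times the LPS mean of 44.3 ± 1.15 CPM (SD, n = 3). LPS raised Osbpl3 over PBS (log2 fold change 1.61, SE 0.16, adjusted p = 1.31e-06, edgeR), and it was lower in LPS/IFNγ than in LPS (log2 fold change -2.35, SE 0.17, adjusted p = 3.49e-07).

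Abca1 and Nr1h3 belong to the same group. Nr1h3 encodes LXRα, a sterol-sensing nuclear receptor, and Abca1, a textbook LXR target, exports cholesterol to apolipoprotein A-I. Abca1 (chr4:53030787-53159895, minus strand) had 281, 558 and 442 CPM in dsHMGB1, 179.8, 223 and 219.7 in LPS, 114, 128 and 129 in LPS/IFNγ, 176, 157 and 175 in frHMGB1 and 163, 193 and 23.2 in PBS. Its dsHMGB1 libraries spread widely, dsHMGB1 replicate 1 being the lowest but above every LPS library, and PBS replicate 3 fell far below the other PBS libraries, which averaged 178 CPM. Nr1h3 (chr2:91184061-91202834, minus strand) had 142, 127 and 139 CPM in dsHMGB1, 56.7, 52.0 and 55.7 in LPS, 22.0, 22.0 and 20.4 in LPS/IFNγ, 74.1, 73.4 and 71.1 in frHMGB1 and 53.2, 49.99 and 72.3 in PBS. The dsHMGB1 libraries were above all others, and the LPS/IFNγ libraries were below all others. Nr1h3 was lower in LPS/IFNγ than in LPS (log2 fold change -1.35, SE 0.12, adjusted p = 3.76e-06), whereas for LPS against PBS its log2 fold change was -0.09 (SE 0.12, adjusted p = 0.518).

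Nr1h3 and the member Acp2, a lysosomal acid phosphatase, lie head to head on chromosome 2, and their annotated ends are separated by 50 bases (chr2:91202835-91202884, GRCm38). The RefSeq window around the start of Acp2 (chr2:91202662-91202961, plus strand, GRCm38.p6) covers that gap. It is shown because both members peaked in dsHMGB1, and the capitals mark the bases between the 2 annotated genes. The RefSeq window of Nr1h3 itself lies inside the gene as GENCODE annotates it.
Acp2: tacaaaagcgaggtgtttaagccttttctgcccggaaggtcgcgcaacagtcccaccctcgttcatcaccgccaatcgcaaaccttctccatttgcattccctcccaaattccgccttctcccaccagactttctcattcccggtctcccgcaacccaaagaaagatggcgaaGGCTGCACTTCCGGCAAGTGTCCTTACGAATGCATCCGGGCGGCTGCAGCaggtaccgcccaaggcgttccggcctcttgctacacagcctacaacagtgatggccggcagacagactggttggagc

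Acp2, which was not placed in a group of function, had a dsHMGB1 mean of 387 ± 26.9 CPM (SD, n = 3) and an LPS mean of 214 ± 6.90 CPM (SD, n = 3). It rose slightly in LPS over PBS (log2 fold change 0.37, SE 0.09, adjusted p = 0.00292) and was lower in LPS/IFNγ than in LPS (log2 fold change -0.73, SE 0.09, adjusted p = 5.75e-05). The other genes of lipid and sterol handling were Smpdl3b, Lpcat2, Cyp51 and Agpat4. Smpdl3b, a membrane-anchored relative of acid sphingomyelinase, had 21.1, 20.9 and 20.5 CPM in dsHMGB1, 10.99, 11.9 and 11.1 in LPS, 7.95, 7.01 and 7.21 in LPS/IFNγ, 2.19, 2.06 and 1.59 in frHMGB1 and 1.54, 1.42 and 1.80 in PBS. Its 3 dsHMGB1 libraries differed little from each other, and the LPS and LPS/IFNγ libraries lay between them and the low PBS and frHMGB1 libraries. Of the 7 genes of the group, 5 were called higher in LPS than in PBS and 4 lower in LPS/IFNγ than in LPS, at an adjusted p under 0.05. Over all protein-coding genes tested these shares were 30.6% and 11.2%, against which the counts of the other groups are also to be read.

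The thiol redox and efflux genes had ratios of 1.52 to 1.69, and LPS or, for Txnrd1, LPS/IFNγ came next except for Srxn1. Slc7a11 encodes the cystine importer xCT, which feeds glutathione synthesis, and Txnrd1 the cytosolic thioredoxin reductase. Slc7a11 (chr3:49892526-50443614, minus strand) had 311, 440.2 and 326 CPM in dsHMGB1, 221, 223 and 225 in LPS, 67.1, 67.4 and 66.7 in LPS/IFNγ, 10.9, 10.8 and 9.65 in frHMGB1 and 12.9, 12.9 and 7.70 in PBS. dsHMGB1, LPS and LPS/IFNγ followed each other without overlap, all above PBS and frHMGB1, which overlapped. LPS raised it over PBS (log2 fold change 4.32, SE 0.20, adjusted p = 4.61e-10), and the level was lower in LPS/IFNγ than in LPS (log2 fold change -1.73, SE 0.18, adjusted p = 1.01e-05). Its ratio of 1.61 fell to 1.43 without dsHMGB1 replicate 2, so that the gene no longer met the rule.

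Srxn1, the sulfiredoxin that repairs over-oxidised peroxiredoxins, took another course. It lies at chr2:152105516-152111376, plus strand and had 205, 206 and 218 CPM in dsHMGB1, 47.5, 45.8 and 48.4 in LPS, 25.8, 28.0 and 25.2 in LPS/IFNγ, 124, 134 and 127 in frHMGB1 and 123, 114 and 103 in PBS. PBS and frHMGB1 were the next highest conditions here, and the LPS and LPS/IFNγ libraries were all below them. Srxn1 fell in LPS against PBS (log2 fold change -1.26, SE 0.09, adjusted p = 2.98e-08) and in LPS/IFNγ against PBS (log2 fold change -2.10, SE 0.09, adjusted p = 1.89e-10). Slc7a11, Txnrd1, Abcc1 and Abcc5 made up the 4 of 5 genes in this group that were called higher in LPS than in PBS. Abcc1, which exports glutathione conjugates and leukotriene C4, had a dsHMGB1 mean of 278 ± 42.6 CPM (SD, n = 3) and an LPS mean of 169 ± 10.2 CPM (SD, n = 3), with PBS replicate 3 (21.4 CPM) below the other PBS libraries. Txnrd1 (chr10:82833951-82897712, plus strand) had 653, 752 and 719.6 CPM in dsHMGB1, 429, 445 and 441 in LPS, 456, 478 and 466 in LPS/IFNγ, 175, 179.9 and 174 in frHMGB1 and 170.5, 167 and 74.4 in PBS. LPS and LPS/IFNγ lay close together between dsHMGB1 and the 2 low conditions, and both were called higher than PBS (log2 fold change 1.67, SE 0.22, adjusted p = 2.23e-05 for LPS).

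The promoter windows of Slc7a11 and Srxn1 (RefSeq, GRCm38.p6, 250 bases before to 50 after the start) are shown because both are textbook targets of NRF2, which binds the antioxidant element, yet differed in their response to LPS. For Slc7a11 (chr3:50443564-50443863, minus strand) the capitals mark matches to TGANNNNGC, the core of that element, on either strand. For Srxn1 (chr2:152105274-152105573, plus strand) they mark matches to TGANTCA, the AP-1 motif. The Srxn1 window also holds 4 matches to TGANNNNGC, which can overlap TGANTCA.
Slc7a11: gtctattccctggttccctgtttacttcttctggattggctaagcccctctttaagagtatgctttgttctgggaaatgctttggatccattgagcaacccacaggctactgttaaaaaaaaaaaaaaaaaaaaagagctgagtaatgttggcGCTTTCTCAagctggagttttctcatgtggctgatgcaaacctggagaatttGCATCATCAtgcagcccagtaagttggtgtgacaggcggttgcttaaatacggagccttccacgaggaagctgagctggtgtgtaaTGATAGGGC
Srxn1: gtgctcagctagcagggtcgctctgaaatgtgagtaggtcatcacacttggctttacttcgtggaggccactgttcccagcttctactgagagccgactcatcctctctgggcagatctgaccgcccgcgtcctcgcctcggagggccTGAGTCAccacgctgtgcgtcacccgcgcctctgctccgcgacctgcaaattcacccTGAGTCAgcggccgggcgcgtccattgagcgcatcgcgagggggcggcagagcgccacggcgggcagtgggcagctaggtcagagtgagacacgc

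G protein-coupled receptors and their regulators held the largest ratio. Gpr55, a receptor for lysophosphatidylinositol (chr1:85938318-85961007, minus strand), had 1.41, 1.89 and 1.46 CPM in dsHMGB1, 0.240, 0.201 and 0.197 in LPS, 0.109, 0.164 and 0.189 in LPS/IFNγ, 0.132, 0.146 and 0.134 in frHMGB1 and 0.174, 0.419 and 0.508 in PBS. Its 3 dsHMGB1 libraries held 1.41 CPM or more and no other library exceeded 0.508 CPM, but the level per kilobase of exon in dsHMGB1 was only 0.426 CPM. Gpr55 was lower in frHMGB1 than in PBS (log2 fold change -1.38, SE 0.39, adjusted p = 0.0491), a call lost in 19 of the alternatives run, among them those without PBS replicate 2 (-1.24) or PBS replicate 3 (-1.09). F2rl2, the protease-activated receptor PAR3, reached 1.30 ± 0.440 CPM (SD, n = 3), with dsHMGB1 replicate 1 at 0.789 CPM beside 0.726 CPM in the highest frHMGB1 library. Its neighbour F2r, the thrombin receptor PAR1, lies 78366 bases away on the opposite strand and had 7.38, 9.54 and 7.99 CPM in dsHMGB1, 3.71, 4.94 and 4.62 in LPS, 4.96, 4.72 and 5.40 in LPS/IFNγ, 0.340, 0.656 and 0.650 in frHMGB1 and 0.731, 0.408 and 0.0782 in PBS.

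Gpr84, a receptor for medium-chain fatty acids, was near 0 in PBS (chr15:103308235-103310612, minus strand). It had 66.7, 64.7 and 63.8 CPM in dsHMGB1, 31.7, 26.5 and 30.8 in LPS, 25.5, 22.2 and 24.3 in LPS/IFNγ, 1.79, 1.46 and 1.28 in frHMGB1 and 0.476, 0.204 and 0.274 in PBS. dsHMGB1, LPS and LPS/IFNγ were far above the other conditions, and frHMGB1 lay above PBS in all libraries. Gpr84 had the largest rise of the 87 genes in LPS against PBS (log2 fold change 6.52, SE 0.25, adjusted p = 7.44e-11), and the largest of those called in frHMGB1 against PBS (log2 fold change 2.23, SE 0.24, adjusted p = 5.76e-05). Adgre4, an adhesion receptor related to F4/80, peaked at 5.04 ± 0.837 CPM (SD, n = 3) beside 2.50 ± 0.635 CPM (SD, n = 3) in LPS. The group also held Cysltr1, Cmklr1, Rgs16, Gpsm2 and Ptgir, and 7 of its 10 genes were called higher in LPS than in PBS.

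NF-kB is a main transcription factor downstream of LPS. The promoter window of Gpr84 (RefSeq, chr15:103310389-103310688, minus strand, GRCm38.p6) was the only member window with a match to either NF-kB motif searched, and it is shown with the 2 matches to GGGANTTTC in capitals.
Gpr84: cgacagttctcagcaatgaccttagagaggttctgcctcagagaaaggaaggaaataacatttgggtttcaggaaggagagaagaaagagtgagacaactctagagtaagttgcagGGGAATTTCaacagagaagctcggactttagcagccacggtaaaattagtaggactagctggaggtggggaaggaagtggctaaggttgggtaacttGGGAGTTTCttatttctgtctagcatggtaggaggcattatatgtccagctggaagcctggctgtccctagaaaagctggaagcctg

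**Figure D3:**
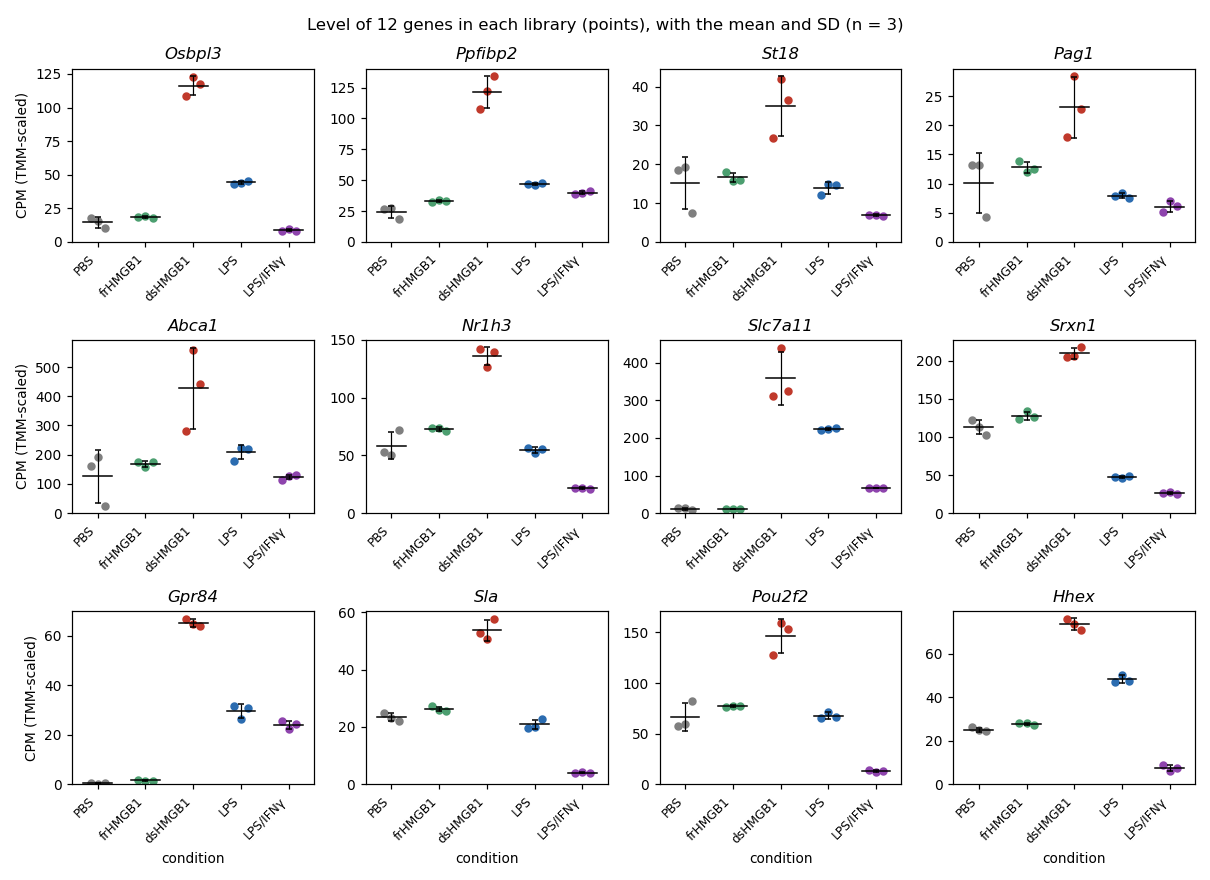
CPM of 12 genes in each library (points), by condition, with the mean (long bar) and SD (error bar, n = 3) and each y axis starting at 0. Gpr84 and Slc7a11 step up from PBS through LPS to dsHMGB1, Sla, Pou2f2 and Hhex have their lowest points in LPS/IFNγ, and Srxn1 is lower in LPS than in PBS.

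Among immune receptors, ligands and signalling adaptors, 8 of 10 genes were lower in LPS/IFNγ than in LPS. Sla encodes the adaptor SLAP, which dampens antigen and cytokine receptor signalling (chr15:66780819-66831829, minus strand), and had 52.8, 50.6 and 57.9 CPM in dsHMGB1, 19.7, 20.0 and 22.8 in LPS, 3.96, 4.15 and 3.87 in LPS/IFNγ, 27.2, 25.9 and 25.7 in frHMGB1 and 24.8, 23.3 and 22.2 in PBS. The libraries of the other 4 conditions held 19.7 CPM or more, and those of LPS/IFNγ 4.15 CPM or less (log2 fold change -2.38, SE 0.10, adjusted p = 4.96e-09 for LPS/IFNγ against LPS). Pag1, an adaptor that brings the kinase Csk to the membrane and so restrains SRC family kinases (chr3:9687479-9833679, minus strand), had 18.0, 28.5 and 22.8 CPM in dsHMGB1, 7.91, 8.31 and 7.45 in LPS, 5.10, 6.98 and 6.11 in LPS/IFNγ, 13.9, 11.9 and 12.6 in frHMGB1 and 13.1, 13.2 and 4.22 in PBS. dsHMGB1 replicate 1 was above all other libraries by a smaller margin than replicates 2 and 3, and PBS replicate 3 was below replicates 1 and 2. Pag1 passed none of the 4 tests without a dsHMGB1 library, with a log2 fold change of -0.37 (SE 0.32, adjusted p = 0.327) in LPS against PBS and -0.38 (SE 0.32, adjusted p = 0.448) in LPS/IFNγ against LPS.

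Clec4a1, Fyb and Pilra rose in LPS and were lower in LPS/IFNγ than in LPS. Pilra, an inhibitory receptor of myeloid cells, had 42.8, 44.4 and 41.8 CPM in dsHMGB1, 28.6, 26.7 and 29.2 in LPS, 10.1, 9.73 and 10.2 in LPS/IFNγ, 3.40, 2.66 and 2.50 in frHMGB1 and 1.90, 2.38 and 3.07 in PBS, so that dsHMGB1, LPS and LPS/IFNγ followed each other without overlap above frHMGB1 and PBS. Clec4a1, a C-type lectin receptor, had 107, 112 and 102 CPM in dsHMGB1, 67.2, 57.9 and 61.1 in LPS, 25.03, 26.3 and 26.1 in LPS/IFNγ, 23.7, 24.2 and 24.5 in frHMGB1 and 17.9, 17.8 and 16.9 in PBS. All 3 frHMGB1 libraries were above PBS, and it was 1 of 4 members called higher in frHMGB1 than in PBS (log2 fold change 0.46, SE 0.08, adjusted p = 0.00378), where 1.44% of protein-coding genes were. That call was lost with no filter on low counts (0.39), with protein-coding genes alone (0.38) and with only the 2 conditions compared (0.42). Fyb, the adaptor ADAP, had a dsHMGB1 mean of 428 ± 92.5 CPM (SD, n = 3) and an LPS mean of 273 ± 12.2 CPM (SD, n = 3). Ptpro, a receptor tyrosine phosphatase, and March1, a ubiquitin ligase for MHC class II, had log2 fold changes of -0.50 (SE 0.10, adjusted p = 0.00211) and -0.94 (SE 0.23, adjusted p = 0.00867) in LPS/IFNγ against LPS. Tmem176a and Tmem176b overlap on opposite strands, and so does Sla with Tg. The libraries were prepared with a stranded kit, and whether the counting used strand is not given in the sources used here.

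The 7 solute carriers and channels were led by Slc13a3, a sodium-coupled dicarboxylate transporter with a ratio of 3.05 at a low level. It had 2.29, 2.87 and 2.32 CPM in dsHMGB1, 0.371, 1.15 and 0.418 in LPS, 0.835, 0.802 and 0.819 in LPS/IFNγ, 0.113, 0.328 and 0.382 in frHMGB1 and 0.255, 0.465 and 0.234 in PBS. LPS replicate 2 stood above the other LPS libraries but below all dsHMGB1 libraries. Slc16a10, a carrier of aromatic amino acids, had 397, 449 and 401 CPM in dsHMGB1, 223, 222 and 218 in LPS, 66.4, 67.1 and 63.2 in LPS/IFNγ, 149, 151 and 145 in frHMGB1 and 133, 140.1 and 118 in PBS. No 2 of its conditions overlapped, and it was lower in LPS/IFNγ than in PBS (log2 fold change -0.99, SE 0.09, adjusted p = 2.83e-07) although LPS alone raised it (log2 fold change 0.76, SE 0.09, adjusted p = 4.01e-06). Slco4a1, Slc25a33 and the voltage-gated proton channel Hvcn1 were also lower in LPS/IFNγ than in LPS, with log2 fold changes of -0.80, -1.15 and -1.18 (adjusted p = 0.00289, 0.00624 and 4.37e-05). Slc25a10, the mitochondrial dicarboxylate carrier, was the last of the 5 called lower (log2 fold change -0.80, SE 0.09, adjusted p = 2.76e-05) and was also called higher in frHMGB1 than in PBS (log2 fold change 0.34, SE 0.09, adjusted p = 0.04), a call lost in 13 alternatives, among them those without PBS replicate 2 (0.29), any frHMGB1 library (0.32 to 0.36), dsHMGB1 replicate 2 or 3 (0.34) or LPS/IFNγ replicate 1 (0.35).

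Transcription regulators included St18 and Pou2f2. St18 is a zinc finger factor of the MYT1 family (chr1:6487231-6860940, plus strand) and had 26.7, 41.9 and 36.7 CPM in dsHMGB1, 11.97, 14.8 and 14.7 in LPS, 7.01, 7.03 and 6.66 in LPS/IFNγ, 18.0, 15.8 and 15.99 in frHMGB1 and 18.5, 19.4 and 7.37 in PBS. dsHMGB1 replicate 1 was the lowest of its condition but still above every other library, and the LPS/IFNγ libraries were tight and below the PBS range. St18 was lower in LPS/IFNγ than in LPS (log2 fold change -1.004, SE 0.28, adjusted p = 0.0181), and the call was lost when LPS/IFNγ replicate 3 was left out (log2 fold change -1.03). For LPS against PBS its log2 fold change was -0.13 (SE 0.28, adjusted p = 0.704). Pou2f2, the octamer-binding factor OCT2 (chr7:25087344-25179726, minus strand), had 127, 159.6 and 153 CPM in dsHMGB1, 65.5, 71.4 and 66.6 in LPS, 14.2, 12.04 and 13.1 in LPS/IFNγ, 76.0, 77.5 and 77.6 in frHMGB1 and 57.1, 59.4 and 81.9 in PBS.

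Pou2f2 was at 14.2 CPM or less in the LPS/IFNγ libraries and at 57.1 CPM or more in all others (log2 fold change -2.37, SE 0.14, adjusted p = 7.84e-08 for LPS/IFNγ against LPS). Hhex, a homeobox repressor of blood cell development (chr19:37434810-37440731, plus strand), had 76.0, 73.9 and 70.8 CPM in dsHMGB1, 47.1, 50.4 and 47.6 in LPS, 8.80, 5.88 and 7.54 in LPS/IFNγ, 28.0, 27.9 and 27.2 in frHMGB1 and 26.1, 24.8 and 24.2 in PBS. Only the LPS/IFNγ libraries were below the PBS libraries. Tsc22d1, a leucine zipper regulator of the TSC22 family, had 304, 291 and 280.0 CPM in dsHMGB1, 182, 174 and 174 in LPS, 33.2, 33.4 and 33.7 in LPS/IFNγ, 80.5, 79.9 and 90.7 in frHMGB1 and 85.8, 87.6 and 60.6 in PBS. Hhex and Tsc22d1 both rose in LPS over PBS, by 0.95 and 1.18 on the log2 scale (SE 0.12 and 0.12, adjusted p = 1.29e-05 and 1.84e-06), and both were lower in LPS/IFNγ than in LPS (log2 fold change -2.71, SE 0.13, adjusted p = 1.14e-08 for Hhex and log2 fold change -2.40, SE 0.13, adjusted p = 2.73e-08 for Tsc22d1). Tshz1, a zinc finger homeobox factor, reached 94.0 ± 22.4 CPM (SD, n = 3), and Hdac4 and Foxn2 completed the 7.

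Ppfibp2 led the genes of cytoskeleton, guidance and small GTPases. It encodes liprin-β2, a scaffold protein that partners the liprin-α proteins at the cell cortex, and lies at chr7:107595207-107748583, plus strand. Its level was 108, 122 and 134 CPM in dsHMGB1, 47.2, 46.5 and 48.1 in LPS, 38.5, 39.9 and 40.9 in LPS/IFNγ, 32.4, 33.6 and 32.9 in frHMGB1 and 26.8, 27.2 and 18.8 in PBS. The dsHMGB1 libraries were separated from the rest by a wide gap, and PBS, frHMGB1, LPS/IFNγ and LPS followed each other below it without overlap. LPS and LPS/IFNγ raised it over PBS (log2 fold change 0.96, SE 0.13, adjusted p = 2.35e-05 and log2 fold change 0.71, SE 0.13, adjusted p = 0.000308), and between those 2 conditions the log2 fold change was -0.25 (SE 0.13, adjusted p = 0.188). Dpysl2, the microtubule regulator CRMP2, had 73.3, 54.4 and 49.8 CPM in dsHMGB1, 27.4, 23.9 and 24.0 in LPS, 16.3, 17.1 and 15.9 in LPS/IFNγ, 28.3, 24.3 and 23.2 in frHMGB1 and 24.2, 25.3 and 31.1 in PBS.

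PBS was the next highest condition for Dpysl2, which was lower in LPS/IFNγ than in PBS (log2 fold change -0.71, SE 0.15, adjusted p = 0.00103). Sema6d, a transmembrane semaphorin, and Arhgap32, a GTPase-activating protein, peaked at 3.97 ± 1.14 CPM (SD, n = 3) and 1.73 ± 0.518 CPM (SD, n = 3), and PBS replicate 3 held 0.234 and 0.195 CPM of them beside 0.905 CPM or more in the other PBS libraries. In Arhgap32 the lowest dsHMGB1 library (1.24 CPM) was under the highest LPS library (1.28 CPM). Rap2b, Plxna2, Itsn1, Efna2, Arl5c, Daam2 and Arhgef37 were among the remaining genes, and 6 of the 12 were called lower in LPS/IFNγ than in LPS.

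Of the 8 secreted, matrix and surface genes, 7 were called higher in LPS than in PBS. Fam20c, the Golgi kinase that phosphorylates secreted proteins, and Ninj1, which ruptures the plasma membrane in lytic cell death, had the highest dsHMGB1 levels per kilobase of exon among the 87 genes, 203 and 296 CPM per kilobase. Fam20c (chr5:138754514-138810077, plus strand) had 1367, 1296 and 1343 CPM in dsHMGB1, 772, 782 and 821 in LPS, 512, 514 and 526 in LPS/IFNγ, 766, 723 and 715 in frHMGB1 and 621, 614 and 493 in PBS. The frHMGB1 and LPS libraries were close together below dsHMGB1, and frHMGB1 was called higher than PBS (log2 fold change 0.35, SE 0.09, adjusted p = 0.0325), a call lost without frHMGB1 replicate 1 (0.32), 2 (0.37) or 3 (0.37) and without dsHMGB1 replicate 3 (0.35). It was also lost under the replicate block (0.35), with no filter on low counts (0.28), with protein-coding genes alone (0.27) and with only the 2 conditions compared (0.32). Plau, the urokinase plasminogen activator (chr14:20836660-20843385, plus strand), had 192, 159 and 166 CPM in dsHMGB1, 84.9, 90.4 and 83.8 in LPS, 88.9, 93.5 and 88.9 in LPS/IFNγ, 49.8, 65.1 and 55.3 in frHMGB1 and 64.3, 70.3 and 62.8 in PBS. Its dsHMGB1 libraries held 159 CPM or more and all others 93.5 CPM or less. Ninj1 (chr13:49187485-49196244, plus strand) had 522, 419.7 and 450.4 CPM in dsHMGB1, 249.7, 249 and 254 in LPS, 245, 242 and 245 in LPS/IFNγ, 211, 213 and 201 in frHMGB1 and 171, 153 and 200.1 in PBS, with LPS and LPS/IFNγ at one level above PBS.

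Pf4, the chemokine CXCL4 of platelets and macrophages, was the member with the widest PBS spread. It had 9.20, 7.57 and 8.25 CPM in dsHMGB1, 4.08, 4.17 and 5.21 in LPS, 2.49, 2.20 and 2.49 in LPS/IFNγ, 2.15, 2.57 and 3.04 in frHMGB1 and 1.71, 1.82 and 9.01 in PBS. PBS replicate 3 was at the level of dsHMGB1, and without it the PBS mean was 1.77 CPM. The erythroid and megakaryocyte list to which Pf4 belongs summed to 7.73 to 9.37 CPM in dsHMGB1 and 2.05 to 9.81 CPM in PBS, with the erythroid genes above at 0. Susd2, a sushi domain membrane protein, had 2.55, 3.66 and 3.56 CPM in dsHMGB1, 1.35, 1.78 and 1.52 in LPS, 0.145, 0.0911 and 0.283 in LPS/IFNγ, 0.113, 0.492 and 0.0764 in frHMGB1 and 0.128, 0.0453 and 0.313 in PBS, and it was lower in LPS/IFNγ than in LPS (log2 fold change -3.12, SE 0.64, adjusted p = 0.00249). Col19a1, a collagen chain, had 271 counts over the 3 dsHMGB1 libraries, 100 in LPS, 29 in LPS/IFNγ, 12 in frHMGB1 and 2 in PBS, so no fold change against PBS is given.

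The 21 genes with other or unassigned roles included Bcl2, the inhibitor of apoptosis, with 3.42, 4.56 and 3.10 CPM in dsHMGB1, 0.719, 0.803 and 1.08 in LPS, 1.60, 1.55 and 1.24 in LPS/IFNγ, 1.66, 1.86 and 1.32 in frHMGB1 and 2.30, 1.79 and 1.02 in PBS. Its 3 LPS libraries were below the other conditions apart from PBS replicate 3 and were called lower than PBS (log2 fold change -0.98, SE 0.29, adjusted p = 0.00992), a call lost without PBS replicate 1 (-0.71) or LPS replicate 1 (-0.82) and with only the 2 conditions compared (-0.84). Gca, the calcium-binding protein grancalcin (chr2:62664285-62694109, plus strand), had 89.4, 117 and 85.7 CPM in dsHMGB1, 65.7, 62.7 and 54.4 in LPS, 27.4, 26.1 and 27.4 in LPS/IFNγ, 2.94, 3.48 and 2.92 in frHMGB1 and 2.26, 2.62 and 1.09 in PBS, and it rose in LPS over PBS (log2 fold change 4.92, SE 0.26, adjusted p = 2.2e-09). Gca overlaps Kcnh7 on the opposite strand. Tmem178, a regulator of calcium release, had 75.6, 64.8 and 66.4 CPM in dsHMGB1, 19.8, 16.3 and 17.0 in LPS, 4.16, 5.19 and 4.66 in LPS/IFNγ, 34.3, 36.4 and 33 in frHMGB1 and 26.0, 24.8 and 38.8 in PBS. LPS/IFNγ was the lowest condition and LPS the next, without overlap, and Tmem178 was lower in LPS/IFNγ than in LPS (log2 fold change -1.92, SE 0.17, adjusted p = 2.48e-06). Gm10134 lies 680 bases from Gbgt1 on the same strand, and its dsHMGB1 mean was 6.37 ± 0.890 CPM (SD, n = 3).

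mt-Nd3, a subunit gene of mitochondrial complex I, and Atg4a-ps, an entry typed as protein-coding despite its pseudogene name, showed a pattern of their own. mt-Nd3 had 1.87, 1.75 and 1.07 CPM in dsHMGB1, 0.0218, 0.0251 and 0.0983 in LPS, 1.05, 0.783 and 1.21 in LPS/IFNγ, 0, 0.0365 and 0.153 in frHMGB1 and 0.905, 1.05 and 0.586 in PBS. Its libraries were near 0 in frHMGB1 and LPS, with 10 and 6 counts in all, and overlapped between dsHMGB1 and LPS/IFNγ. Atg4a-ps had a dsHMGB1 mean of 1.57 ± 0.407 CPM (SD, n = 3), 0.235 ± 0.162 CPM (SD, n = 3) in frHMGB1 and 0.161 ± 0.122 CPM (SD, n = 3) in LPS. These were the only 2 members called higher in LPS/IFNγ than in LPS. The share of counts on processed pseudogenes was also low in frHMGB1 (0.540 to 0.560%) and LPS (0.481 to 0.487%) and higher in PBS (0.805 to 1.49%), dsHMGB1 (0.712 to 0.833%) and LPS/IFNγ (0.684 to 0.709%), and its part in these values was not tested. Both are known to have close copies elsewhere in the genome, between which reads may be divided, so their values are uncertain.

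Over the 87 genes, the comparison of LPS with PBS called 46 higher, 52.9% of the members beside 30.6% of the protein-coding genes tested, and 11 lower, 12.6% beside 34%. The median log2 fold change of the members was 0.58, and that of all protein-coding genes was -0.12. The rule capped both conditions below dsHMGB1. The largest rises were in Gpr84, Col19a1 (2 counts in PBS, given above without a fold change), Gca, Slc7a11 and Pilra (log2 fold change 3.53, SE 0.17, adjusted p = 5.74e-10 for Pilra). The largest falls, apart from mt-Nd3 and Atg4a-ps, were in Mturn (log2 fold change -1.61, SE 0.23, adjusted p = 3.7e-05) and Srxn1. Without PBS replicate 3 the counts were 57 higher beside 37.9% and 17 lower beside 37.4% of the protein-coding genes tested.

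In LPS/IFNγ against PBS, 31 members were called higher (35.6% beside 31.7%) and 29 lower (33.3% beside 35.5%). The median log2 fold change was 0.03, against -0.14 over all. Gpr84 (log2 fold change 6.21, SE 0.25, adjusted p = 1e-10) and F2r (log2 fold change 3.55, SE 0.44, adjusted p = 1.05e-05) were among the largest rises, and Tmem178 (log2 fold change -2.68, SE 0.17, adjusted p = 1.25e-08) and Sla (log2 fold change -2.55, SE 0.10, adjusted p = 9.03e-11) had the largest falls. The counts were 32 higher beside 36.3% and 37 lower beside 39.9% without PBS replicate 3. This comparison shares its PBS libraries with those of LPS and frHMGB1 against PBS.

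In LPS/IFNγ against LPS, the cap bears on the direction of the counts. The rule kept the LPS/IFNγ mean at or below the dsHMGB1 mean divided by 1.5, the dsHMGB1 mean was a median of 1.88 times the LPS mean, and LPS was the next highest condition, and so above LPS/IFNγ, in 50 genes. With this limit on rises, 42 of the 87 were called lower, 48.3% beside 11.2% of the protein-coding genes tested, and 2 were called higher, 2.3% beside 12.5%. The median log2 fold change was -0.73, against -0.03 over all protein-coding genes, and 72 of the 87 were on the lower side, shares that cannot be told apart from what the rule fixed. The largest falls were in Susd2, Hhex, Tsc22d1, Sla and Pou2f2. Without PBS replicate 3, which enters through the shared estimate of the spread, 60 were called lower beside 29.8% and 4 higher beside 21.6%. The LPS concentration of the LPS/IFNγ cultures is given in 2 ways (above), so the effect of IFNγ and a difference in LPS dose cannot be told apart.

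frHMGB1 against PBS called 4 members higher, 4.6% beside 1.44%, namely Gpr84, Clec4a1, Fam20c and Slc25a10, and 3 lower, 3.45% beside 0.422%, namely Gpr55, Atg4a-ps and mt-Nd3. At an unadjusted p under 0.05 the counts were 18 and 3. The median log2 fold change was 0.19, against 0.05 over all protein-coding genes. PBS replicate 3 had a median log2 ratio to the mean of the other PBS libraries of -0.34 in the members and -0.22 over all protein-coding genes. Its part in the shift to the higher side was not tested. Without PBS replicate 3, 23 members were called higher beside 10% of the protein-coding genes tested, and 2 lower beside 3.59%.

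**Figure D4:**
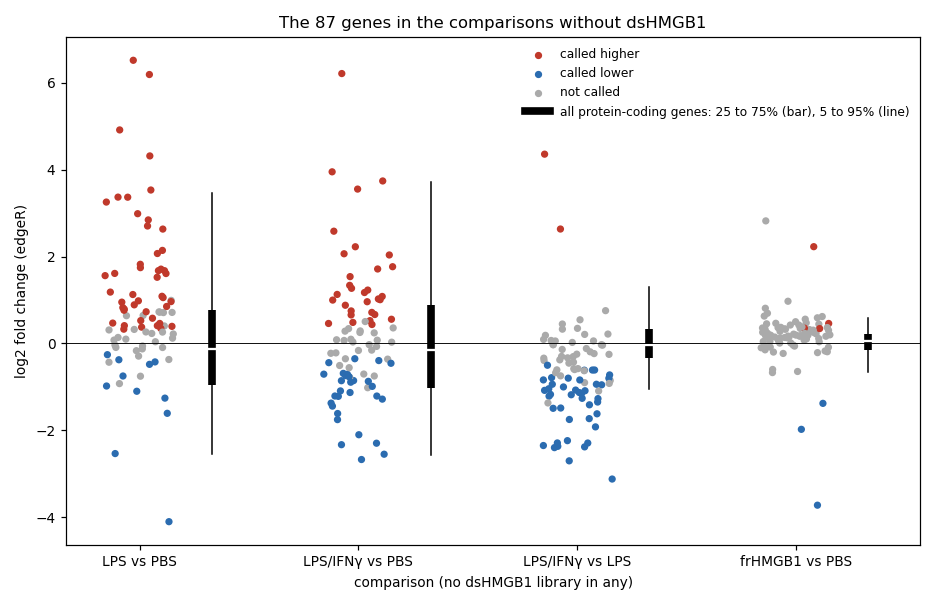
Log2 fold changes of the 87 genes (points) in the 4 comparisons without a dsHMGB1 library, red for called higher, blue for called lower and grey for not called at an adjusted p under 0.05 (edgeR), beside the distribution of all protein-coding genes tested (black bar and line, white mark at the median). In LPS/IFNγ against LPS the points sit mostly below 0, with a median of -0.73 beside -0.03, and in frHMGB1 against PBS they crowd just above 0, with a median of 0.19 beside 0.05.

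Replicate spread, as the coefficient of variation (CV) of CPM over the 3 libraries, differed between conditions. Among members with a condition mean of at least 1 CPM its median was 10% in dsHMGB1, 26.1% in PBS, 6.33% in frHMGB1, 5.59% in LPS/IFNγ and 6.13% in LPS. The medians over all protein-coding genes were 9.55%, 28.6%, 4.51%, 4.03% and 5.5% in the same order. In dsHMGB1, 19 of the 87 genes had a CV over 20%, and in PBS 41 of 67. The widest in dsHMGB1 were Sncaip (40.9%), F2rl2 (33.9%) and Abca1 (32.6%), and the narrowest were Tmem176a (0.477%), Sh3tc1 (1.3%) and Smpdl3b (1.67%). dsHMGB1 replicate 1 was the lowest of the 3 in 42 genes and the highest in 30, replicate 2 the highest in 41 and replicate 3 the highest in 16. Sncaip, F2rl2, Tmem176a and Sh3tc1 were chosen for these values.

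**Figure D5:**
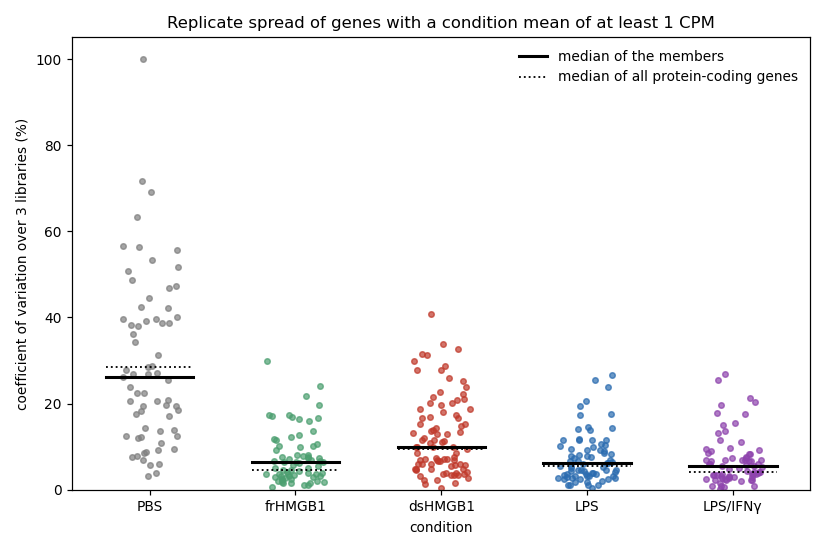
Coefficient of variation over the 3 libraries (y axis, %) of each of the 87 genes with a condition mean of at least 1 CPM (points), by condition, with the median of these genes (solid bar) and of all protein-coding genes (dotted bar). PBS spreads up to 100% for Pf4, whereas the medians of the other 4 conditions lie between 5.59% and 10%.

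A stricter reading asked that the lowest dsHMGB1 library be at least 1.5 times the highest library of any other condition, and 33 genes met it. They included Osbpl3, Ppfibp2, Gpr55, Gpr84, Nr1h3, Srxn1, Sla, Pou2f2, Smpdl3b, Slc13a3, Slc16a10, Fam20c, Ninj1 and Plau, and not St18, Pag1, Abca1 or Slc7a11. When each of the 15 libraries was left out in turn, 64 of the 87 genes met the rule every time. The other 23 failed it at least once, among them Pilra, Hhex, Fyb, Gca, Txnrd1, Hvcn1, Slc7a11 and Mturn. The ratio of Mturn fell from 1.55 to 1.30 without PBS replicate 3.

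Genes related to these members, by lists of families and partners, were tested in the contrasts with dsHMGB1, since the rule did not choose them. Of the 12 oxysterol-binding protein genes tested, the 11 without Osbpl3 included 4 called lower in dsHMGB1 than in PBS, where 27.3% of protein-coding genes were called lower and 25.6% higher. Osbp2 had the lowest value of the 4 (log2 fold change -1.84, adjusted p = 6.79e-06), and Osbpl7, Osbpl2 and Osbpl9 were the others. Ppfibp1, the nearest relative of Ppfibp2, rose in dsHMGB1 over PBS (log2 fold change 1.15, adjusted p = 0.0116), as did Ppfia1 and Ppfia3 of the liprin-α genes, whereas Ppfia4, Kank2 and Ptprs fell. In dsHMGB1 against LPS, where 12.6% of protein-coding genes were called lower and 12.3% higher, Ppfia3 (log2 fold change -1.22, adjusted p = 0.00448) and Ppfia1 (log2 fold change -0.96, adjusted p = 0.0455) were lower, while Ppfia4 (log2 fold change 0.90, adjusted p = 0.00117) and Ptprs (log2 fold change 0.69, adjusted p = 0.0131) were higher. Among the MYT1 family St18 alone passed the filter, with 0 counts for Myt1 and 8 for Myt1l over all libraries.

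Of 14 other genes tested in the list of Csk adaptors, SRC family kinases and their regulators, 8 were called higher in dsHMGB1 than in PBS and 4 lower. Lyn, Fyn, Src and Fgr, kinases of the SRC family, rose in dsHMGB1 over PBS, by 1.09 to 2.81 on the log2 scale, while Yes1 had log2 fold change -0.15, adjusted p = 0.788. Csk, the kinase that Pag1 recruits, was slightly lower (log2 fold change -0.20, adjusted p = 0.0483). Ptpn6, the phosphatase SHP-1, was higher in dsHMGB1 than in LPS (log2 fold change 0.55, adjusted p = 0.000438). Among 18 genes of lipid transfer at membrane contacts, 6 were higher and 1 lower in dsHMGB1 than in PBS, and Stard4, a carrier of cholesterol, was higher in dsHMGB1 than in PBS (log2 fold change 0.41, adjusted p = 0.00765), LPS (log2 fold change 1.09, adjusted p = 1.3e-05) and LPS/IFNγ (log2 fold change 1.95, adjusted p = 3.5e-08), beside 19.3% of protein-coding genes called higher in the last of these. In dsHMGB1 against LPS the list had 2 genes called higher and 3 lower, the latter being Gramd1a (log2 fold change -1.05, adjusted p = 1.22e-05), a sterol transporter, and the START domain genes Stard3 (log2 fold change -0.46, adjusted p = 0.000528) and Stard5 (log2 fold change -0.49, adjusted p = 0.000432).

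The HMGB1 and receptor list had 5 of 14 genes higher and 4 lower in dsHMGB1 than in PBS. Tlr2 (log2 fold change 4.01, adjusted p = 1.52e-12) and Cd14 (log2 fold change 2.72, adjusted p = 2.15e-08), a receptor and a co-receptor of bacterial ligands, rose. Cxcr4, the receptor linked to the reduced form, fell (log2 fold change -3.55, adjusted p = 1.06e-11). These changes were shared with LPS, which against PBS had log2 fold changes of 4.26 for Tlr2, 3.05 for Cd14 and -4.79 for Cxcr4. In LPS/IFNγ against PBS the values were 2.44, 1.32 and -5.52 in the same order of genes. Tlr4 was called in neither dsHMGB1 against PBS nor LPS against PBS, with means of 70.8 ± 15.7 (SD, n = 3), 50.2 ± 23.1 (SD, n = 3) and 54.6 ± 2.63 CPM (SD, n = 3) in dsHMGB1, PBS and LPS. In dsHMGB1 against LPS/IFNγ, Tlr4 (log2 fold change 1.24, adjusted p = 0.00335) and Cxcr4 (log2 fold change 1.97, adjusted p = 5.82e-09) were higher.

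Several members are neighbours in the genome. Among those within 200 kb of each other were F2rl2 and F2r, Gm10134 and Gbgt1, Tshz1 and Zadh2 (357 bases apart), Adgre4 and Pot1b, Itsn1 and Donson, the overlapping Tmem176a and Tmem176b, and Nr1h3 with Acp2 and Slc39a13. Tmem176a and Tmem176b share their start region, and both peaked in dsHMGB1 with ratios of 1.75 and 1.77, values given because the genes overlap.

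Promoter windows were found for 66 of the 87 genes, in 89 windows, among 32851 windows of the RefSeq table, and Pag1 and St18 were among the genes with none. Motifs were searched on both strands in the 300 bases. The share of member windows with a match was close to that of all windows for TGANNNNGC (41.573% beside 41.341%), TGANTCA (6.742% beside 7.808%), GAGGAA, the core of the PU.1 site (29.213% beside 28.276%), and CACGTG, an E-box (8.989% beside 7.15%). It was lower for GAAANNGAA, the interferon response element (4.494% beside 8.56%, in 4 member windows), CATGTG, another E-box (8.989% beside 14.155%), and TATAAA, the TATA box (5.618% beside 13.616%), and higher for TGACGTCA, the cAMP element (3.371% beside 1.79%, in 2 genes). For TTCNNNGAA, the GAS motif, another interferon element, the share was 8.989% beside 8.298%. The NF-kB motif GGGANTTTC was in 1.124% beside 1.111%, and GGGANTTCC in 0% beside 1.677%. TGANTCA and TGANNNNGC can overlap each other. These are matches of letters and were not tested as sites.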

How the data were processed

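RNA-seq libraries of 5 conditions with 3 replicates each were analysed from the gene-level read counts that the authors deposited, raw and not normalized. Per the labels and the study's methods, the authors aligned the reads with STAR to GRCm38, and which program counted the reads, and with which strand setting, is not given in the sources used here. The table held 51763 gene identifiers, of which 51661 matched GENCODE M21, the source of names, types and coordinates, 102 did not, and 0 columns were without a sample. Total counts per library set the precision, and intervals or errors cover the spread between libraries of pooled cells only.

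Genes were kept by filterByExpr by condition (minimum count 10), scaled by TMM and fitted over all 15 libraries with edgeR 4.0.16 (quasi-likelihood test, R 4.3.3, limma 3.58.1), with condition as the only term, and p-values were adjusted by Benjamini-Hochberg over all 16919 genes tested, a call being an adjusted p under 0.05. A standard error is the absolute log2 fold change divided by the square root of F and is approximate. Levels are TMM-scaled CPM, and CPM per kilobase divides by the exon length of the gene. The scripts were tested on simulated data.

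The members and the gene lists were chosen with earlier results of these data known, and groups of function were assigned by hand after the members were known. Genes named with values were Osbpl3, Ppfibp2, St18 and Pag1, the 20 members of highest ratio, the 10 of highest dsHMGB1 level, up to 5 called in each direction of each comparison, up to 4 of highest ratio in each group of function, the 5 genes on each side of the threshold, and genes of the lists that were called. Yes1, Sncaip, Tmem176a, Tmem176b and Sh3tc1, also given with values, were chosen after their values were seen. Some items that these rules would name are not reported here. Alternatives were DESeq2 1.42.0, other filters and scalings, a replicate block, fits of only the compared conditions and leaving out each library. Promoter windows were taken from RefSeq (GRCm38.p6).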

Additional observations from a re-analysis of the deposited data

How the results depend on the processing

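The 87 genes became 19 at a threshold of 2 times, 220 at a lower threshold and, in an alternative chosen after seeing the data, 33 with the lowest dsHMGB1 library against the highest other library, and they numbered 81 (without PBS replicate 3) to 98 (without dsHMGB1 replicate 1) when 1 library was left out. With no filter on low counts, 7 members were lower in LPS than in PBS and 1 was higher in frHMGB1 than in PBS, and with protein-coding genes alone the frHMGB1 comparison gave 1 higher and 1 lower. With only the 2 conditions compared, 4 were lower in LPS than in PBS, 6 were higher in LPS/IFNγ than in LPS, and edgeR called 0 higher and 0 lower of 84 fitted in frHMGB1 against PBS, where 5 and 3 had an unadjusted p under 0.05 and DESeq2 over all libraries called 6 and 3. Leaving out 1 library gave 45 to 57 higher and 7 to 17 lower in LPS against PBS, 28 to 32 and 27 to 37 in LPS/IFNγ against PBS, 2 to 4 and 40 to 60 in LPS/IFNγ against LPS, and 2 to 23 and 1 to 2 in frHMGB1 against PBS. Of 3878 values of single genes under an alternative, 3724 kept direction and side of the threshold or moved by less than the spread, 99 kept direction and lost the call, 55 ratios moved and 0 reversed. A ratio that moved by less than the spread could still fall under 1.5, so the 3724 do not count kept memberships. Replicate numbers did not pair the libraries (1 of 30 pairs had a correlation of deviations over 0.1, range -0.39 to 0.38, and 6 of 15 libraries correlated best with their own number). Both ends of that range were between PBS and dsHMGB1 libraries, -0.39 at replicate 1 and 0.38 at replicate 2. The replicate block moved the frHMGB1 calls from 4 to 2 higher, the other counts staying within 1.5 times. The cause of these changes was not tested. Genes near 1 CPM rest on few counts.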
